A study of Rattus norvegicus with 12 samples.

Results

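The genes described here are those of the rat table whose symbol is Zfp followed by digits alone, without Zfp36, an RNA-binding protein whose fingers are of another type. The rule looks at names and at no measured value, but the set was chosen with earlier results of these data known. It took 166 of the 9721 rows, which carry 153 different symbols. Of these symbols, 6 stand on more than 1 row (19 rows in all), with Zfp54 on 9. A filter on low counts left 163 of the 166 rows for testing beside 9328 other genes. The 3 that were not tested were Zfp488, Zfp551 and 1 of the Zfp54 rows.

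Most proteins with such names carry C2H2 zinc fingers, small folds that hold a zinc ion and that read short stretches of DNA when several stand in a row. In many of them the fingers are joined to a KRAB domain, which binds the scaffold Trim28 and through it the histone methyltransferase Setdb1 and the heterochromatin proteins Cbx1, Cbx3 and Cbx5, so that the bound DNA, often a transposon, is silenced. Others work as activators, as ubiquitin ligases, as RNA-binding proteins or in making ribosomes. The deposited annotation put 126 of the 166 rows in its zf-C2H2 family of transcription factors, 1 in its ZBTB family and 5 under other factors, and gave no factor family for 34.

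RNA came from wild-type primary astrocytes of the midbrain of newborn Sprague-Dawley rats, grown in medium with fetal bovine serum. There were 4 groups of 3 libraries. The control group is labelled 0 h, and the treated groups had PT109B, a small molecule known here by its code name, at 10 µM for 1.5, 3 and 6 h. The labels name no vehicle for the controls, nor do they say that the replicates are separate cultures. The p-values therefore cover the spread seen among these replicates, which could be technical.

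Totals were 9368972 to 12498050 counts per library. Levels in CPM are counts relative to the library size after TMM scaling, which assumes that most genes do not change. Astrocyte markers were high in the controls (Gfap 2180.1 ± 457 and Glul 3267 ± 929 CPM, SD, n = 3), but all 20 microglia markers looked for were present too, none at 0 in any library, with a summed level of 3248 to 3970 CPM in the controls. In 3 treated libraries the levels went apart from those of their own group, and these are called the libraries standing apart below. Summed microglia markers were at 363 and 353 CPM in replicates 1 and 2 at 1.5 h, but at 4195 CPM in replicate 3. The sum of 20 mitosis genes was 1592 to 2161 CPM in the controls and 132 and 149 CPM in 2 of the libraries at 3 h, but 1219 CPM in replicate 3, and likewise 121 and 140 CPM in 2 of the libraries at 6 h, but 1189 CPM in replicate 1. Markers of other cells differed between the same libraries. Summed fibroblast and meningeal markers (11 of 13 genes) were 5850 and 6092 CPM in replicates 1 and 2 at 1.5 h, against 1633 CPM in replicate 3 and 1534 to 1951 CPM in the controls. Summed neuron markers (10 of 13 genes) were 1457 and 1318 CPM in replicates 1 and 2 at 3 h and 1148 and 1099 CPM in replicates 2 and 3 at 6 h, against 528 and 437 CPM in the libraries standing apart there and 465 to 551 CPM in the controls. The mean log2 CPM of the same neuron markers did not follow these sums. It was 4.07 and 4.23 in those replicates at 3 h and 4.24 and 4.30 at 6 h. In the libraries standing apart there it was 4.53 and 4.34, and in the controls 4.35 to 4.79. The part of these cells in the results was not tested. Counts of members and lists, and the values of several named members, are given with and without the libraries standing apart. These libraries were picked from the same data because they differed from their groups, and leaving them out narrows the spread. At 1.5 h the levels of replicates 1 and 2 correlated at 0.991, and with replicate 3 at 0.897 and 0.898. Adjusted p-values of the fit without them therefore describe the libraries kept and are not support for a change. In cultures of mixed cells, fewer cells of a type and less RNA per cell cannot be told apart.

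Promoters are printed for 4 genes, to show a pair of members that moved each way, chosen because they had the smallest p-values at 3 h in each direction among members with a single RefSeq promoter. Zfp217 and Zfp593 were higher at 3 h, and Zfp638 and Zfp260 were lower. Each sequence runs 5′ to 3′ on the gene's strand from 250 bases before to 50 bases after the start of the gene, from RefSeq on the GRCr8 build: chr3:179321644-179321943 (- strand), chr5:151748675-151748974 (- strand), chr4:117959801-117960100 (+ strand) and chr1:94469611-94469910 (+ strand). Capitals mark matches on either strand to 4 motifs, chosen after the sequences had been seen: the cAMP response element TGACGTCA, the GC box GGGCGG, the ETS site CCGGAAGT and the NRF1 core GCGCATGCG.
Zfp217: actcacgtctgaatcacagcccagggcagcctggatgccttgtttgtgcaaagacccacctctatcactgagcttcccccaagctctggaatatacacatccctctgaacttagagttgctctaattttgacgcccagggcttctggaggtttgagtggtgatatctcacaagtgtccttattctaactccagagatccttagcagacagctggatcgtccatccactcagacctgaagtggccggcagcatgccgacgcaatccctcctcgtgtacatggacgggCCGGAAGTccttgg
Zfp593: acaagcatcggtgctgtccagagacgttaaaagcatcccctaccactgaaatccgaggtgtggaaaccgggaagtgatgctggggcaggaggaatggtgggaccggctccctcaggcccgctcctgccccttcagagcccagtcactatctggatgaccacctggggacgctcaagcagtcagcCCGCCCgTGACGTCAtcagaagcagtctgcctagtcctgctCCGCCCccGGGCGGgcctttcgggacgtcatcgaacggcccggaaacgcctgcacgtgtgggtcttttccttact
Zfp638: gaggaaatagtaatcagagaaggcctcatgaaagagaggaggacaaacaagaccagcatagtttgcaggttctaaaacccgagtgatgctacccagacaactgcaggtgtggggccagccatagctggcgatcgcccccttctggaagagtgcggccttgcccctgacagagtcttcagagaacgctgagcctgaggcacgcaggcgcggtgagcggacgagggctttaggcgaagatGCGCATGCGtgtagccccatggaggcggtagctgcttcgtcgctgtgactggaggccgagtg
Zfp260: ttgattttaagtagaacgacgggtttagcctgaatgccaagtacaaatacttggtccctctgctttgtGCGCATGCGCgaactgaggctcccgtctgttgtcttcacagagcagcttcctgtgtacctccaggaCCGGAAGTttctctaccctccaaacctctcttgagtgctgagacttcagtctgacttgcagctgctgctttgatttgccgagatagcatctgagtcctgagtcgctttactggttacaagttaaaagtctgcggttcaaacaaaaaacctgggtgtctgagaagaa
The Zfp217 window holds 1 ETS site. In the Zfp593 window there are 1 cAMP response element and 3 GC boxes, and the Zfp638 window has 1 NRF1 core. The Zfp260 window has 1 ETS site and 2 NRF1 cores, which overlap on opposite strands. These are matches of letters, not measured sites.

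Of the 153 symbols, 144 were found in RefSeq and 101 had a single promoter entry. GC boxes stood in 51.5% of these 101 windows, against 63.0% of 6903 windows of genes in the table and 35.9% of 24206 RefSeq windows. Among members lower at 3 h, 7 of 18 windows held a GC box (38.9%), and among members higher at 3 h, 7 of 11 (63.6%). NRF1 cores stood in 2 of those 18, in none of those 11 and in 3.96% of the members, against 2.69% of the table's windows. The ETS site was found in 2 of the 18, 2 of the 11 and 6.93% of the members, near the 6.72% of the table's windows. cAMP response elements were found in 1 of the 11 (Zfp593), in none of the 18 and in 1.98% of the members, against 2.74% of the table's windows. With so few windows in each direction, these shares are a description only.

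Per gene length and library size (FPKM, the authors' values), the Zfp genes were weakly expressed. Their median level was 3.10 FPKM (mean over the 12 libraries, 166 rows), against 8.22 FPKM for the other 9555 rows, and 25 members lay below 1 FPKM. Levels ran from 0.062 FPKM for the untested Zfp54 row to 28.2 FPKM for Zfp106, an RNA-binding protein needed by motor neurons. Next in order came Zfp24 (24.4 FPKM), required for myelination by oligodendrocytes, Zfp330 (22.5 FPKM), Zfp91 (20.9 FPKM) and Zfp703 (20.5 FPKM).

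At 3 h with PT109B a larger share of the Zfp genes than of the other genes had fallen, and a smaller share had risen. Of 163 members tested with edgeR's quasi-likelihood test, 31 were lower and 16 were higher than in the controls at a Benjamini-Hochberg adjusted p below 0.05. That is 19.0% lower and 9.82% higher, against 7.75% lower and 13.6% higher among the 9328 other genes. Over all 9491 genes tested the shares were 7.94% lower and 13.5% higher. The median log2 fold change of the members was -0.29, and 113 of the 163 lay below 0. In the rest of the table the median was -0.03. Without the threshold on adjusted p, 54 members were lower and 26 higher at an unadjusted p below 0.05, against 16.2% and 22.2% of all genes.

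**Figure D1:**
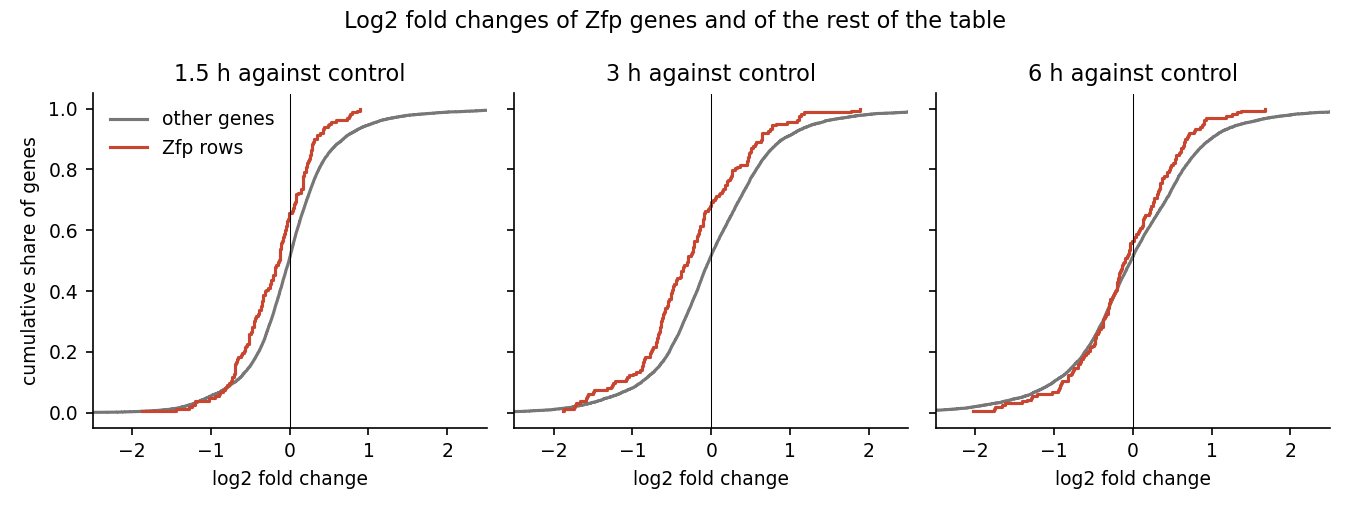
Cumulative share of genes (y axis) at or below each log2 fold change against control (x axis), for the 163 Zfp rows tested (red) and 9328 other genes (grey), at 1.5, 3 and 6 h. The red curve lies to the left at 3 h over most of its course, with medians of -0.29 and -0.03, and close to the grey one at 6 h, with medians of -0.10 and -0.02.

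The same lean was seen in each library at 3 h. Relative to the control mean, the median member stood at -0.36, -0.38 and -0.14 on the log2 CPM scale in replicates 1, 2 and 3, and the median of the other genes at -0.04, -0.05 and 0.01. The difference from the other genes was smallest in replicate 3, the library with the most mitosis transcripts of its group, and the part of this in the result was not tested. Every library at 3 h was below every control for 68 members (41.7%), and above every control for 30 (18.4%). Over all genes tested these shares were 24.3% and 23.4%. Without replicate 3 the members' counts were 99 below and 38 above, against 41.9% and 37.7% of all genes.

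**Figure D2:**
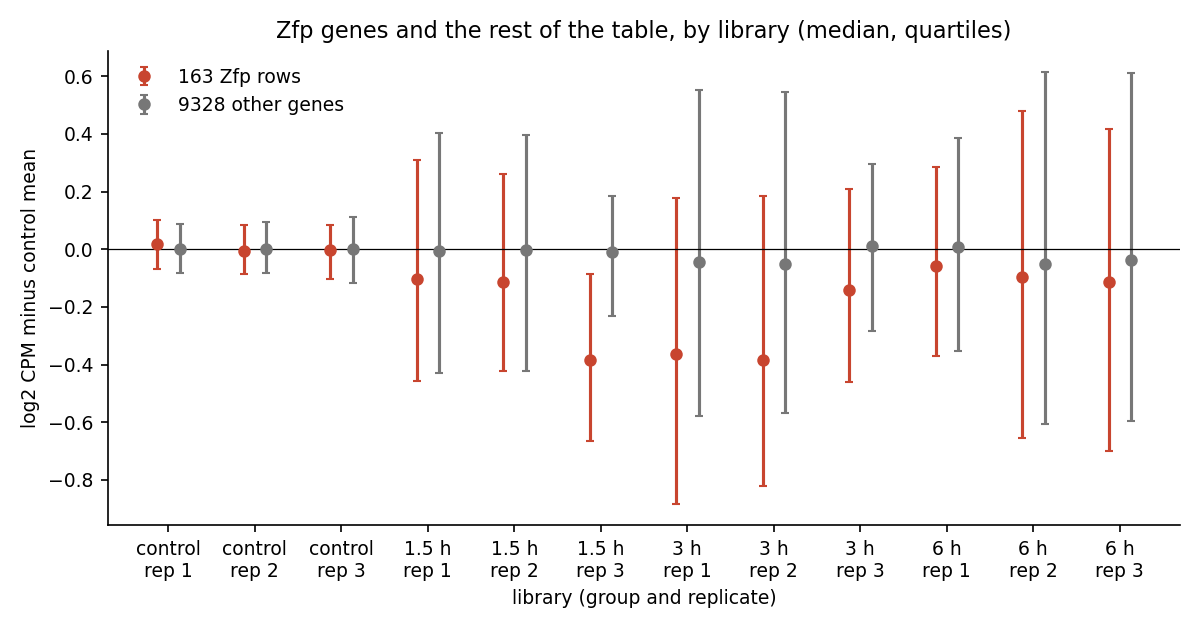
Median (point) and quartiles (bar) over genes of log2 CPM minus the control mean (y axis) in each of the 12 libraries (x axis), for 163 Zfp rows (red) and 9328 other genes (grey). Red medians are -0.36, -0.38 and -0.14 in the 3 libraries at 3 h, and the lowest of all, -0.38 in 1.5 h replicate 3, stands beside a grey median of -0.01.

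How many members passed depended strongly on the libraries and on the scaling, but the lean against the rest did not reverse in any of the 20 fits made for this comparison. In all 20, a larger share of members than of other genes was lower, a smaller share was higher, and the members' median was 0.20 to 0.33 below that of the other genes on the log2 scale. Whether more members fell than rose was less stable. Without control replicate 1, 6 members were lower and 7 higher, against 2.72% and 6.16% of all genes. Without 3 h replicate 3, 61 were lower and 18 higher, against 19.2% and 19.5% of all genes. With the 3 libraries standing apart left out, 92 of 164 members were lower (56.1%) and 32 higher (19.5%), against 39.6% and 31.4% of all genes, so that in this fit more genes of the whole table, too, were lower than higher. Scaling to the library total in place of TMM moved the median of the other genes to -0.33. With it 60 members were lower and 8 higher, against 19.9% and 6.85% of all genes, so the split in direction depends on the scaling and is read here only against the rest of the table.

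In each of 3 ranges of level a larger share of members than of other genes was lower. Among 54 members below 2.17 FPKM, 13 were lower at 3 h (24.1%), against 5.10% of 1921 other genes of that level. In the middle range, up to 4.90 FPKM, 8 of 54 were lower (14.8%), beside 10.7% of 1467 other genes. Above it, 10 of 55 were lower (18.2%), against 7.88% of 5940. Risen members were most frequent in that highest range, with 9 of 55 (16.4%), near the 16.6% of other genes there. Without the libraries standing apart the shares lower were 68.5%, 53.7% and 47.3% of the members from the lowest range to the highest, beside 45.1%, 48.3% and 35.2% of the other genes.

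At 6 h the share of fallen Zfp genes was like that of the rest. Of the 163 members 19 were lower (11.7%) and 22 higher (13.5%), against 11.8% and 18.7% of all genes tested. Their median log2 fold change was -0.10, beside -0.02 for the other genes. For 44 members (27.0%) every library at 6 h was below every control and for 33 (20.2%) above, where the shares over all genes were 27.5% and 28.2%. Without replicate 1 these counts were 73 and 52, against 42.3% and 39.5% of all genes. Leaving out the libraries standing apart gave 69 lower and 45 higher of 164, with 41.8% and 33.3% of all genes. In that fit and in the first, the share of members lower differed from that of all genes by less than 1 percentage point.

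After 1.5 h few genes passed the test. The 4 members lower were Zfp623, Zfp87, Zfp133 and Zfp703, and the 1 higher was Zfp217, against 1.37% and 1.95% of all genes. At an unadjusted p below 0.05, 43 members were lower and 5 higher, against 9.83% and 11.3% of all genes. With the replicate number as a block none was lower and 2 were higher, Zfp217 and Zfp281, against 0.674% and 1.44% of all genes. The 4 lower members then had adjusted p of 0.0723, 0.0782, 0.0827 and 0.0783. In 62 members (38.0%) every library at 1.5 h lay below every control, while for 10 (6.13%) every library lay above. Over all genes these shares were 15.1% and 12.9%. Without replicate 3 the counts were 66 and 43, against 36.6% and 35.6% of all genes. The lean was largest in replicate 3, in which 134 of 163 members were below the control mean (82.2%, against 51.4% of other genes) with a median of -0.38, while replicates 1 and 2 had medians of -0.10 and -0.11. That replicate held microglia markers at 4195 CPM in sum, against 363 and 353 CPM in replicates 1 and 2, and fibroblast and meningeal markers at 1633 CPM, against 5850 and 6092 CPM, and the part of this in the result was not tested. When the libraries standing apart were left out, 50 members were lower and 30 higher of 164, against 30.5% and 28.7% of all genes.

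The members that moved are taken below by what their products are known to do. This grouping was made after the values had been seen and is an order of description. Levels in CPM are in the order of replicates 1, 2 and 3, and changes are log2 fold changes ± SE with edgeR's adjusted p.

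Members with a part in ribosomes or the nucleolus were among those that rose. Zfp593 is a factor that joins the large ribosomal subunit during its assembly. Its levels were 22.3, 17.4 and 16.4 CPM in the controls, 21.1, 24.8 and 20.5 at 1.5 h, 48.7, 46.3 and 31.9 at 3 h and 40.6, 47.9 and 56.5 at 6 h. The change was 1.18 ± 0.20 (adjusted p = 0.00266) at 3 h and 1.37 ± 0.20 (adjusted p = 0.00079) at 6 h. All 6 libraries at these times were above all 3 controls, with 3 h replicate 3 the lowest of them. Zfp622, which acts in a late step of the same assembly, had 62.1, 59.3 and 58.8 CPM in the controls, 99, 93.7 and 72.9 at 3 h and 82.6, 104 and 96.6 at 6 h, a change of 0.56 ± 0.13 (adjusted p = 0.017) and 0.65 ± 0.13 (adjusted p = 0.0051). Zfp330, a nucleolar protein, went from 47.4, 51 and 40.6 CPM to 80.9, 77.5 and 57.5 at 3 h and 84.4, 91.6 and 87.7 at 6 h, or by 0.64 ± 0.14 (adjusted p = 0.0111) and 0.92 ± 0.14 (adjusted p = 0.00101). For both genes, too, no treated library at 3 or 6 h reached down to the controls, and both were near them at 1.5 h.

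Zfp598, the ubiquitin ligase that marks collided ribosomes, took another course. It stood at 72.7, 70.5 and 73.1 CPM in the controls, at 57.4, 60.9 and 49.8 at 1.5 h, 52.7, 57.9 and 59.9 at 3 h and 69.3, 83.1 and 84.5 at 6 h. Its differences from control of -0.36 ± 0.12 (adjusted p = 0.119), -0.34 ± 0.12 (adjusted p = 0.0552) and 0.13 ± 0.11 (adjusted p = 0.398) did not pass the test, although all libraries at 1.5 and 3 h lay below the controls. Without the libraries standing apart the first 2 of these passed, at -0.29 ± 0.08 (adjusted p = 0.00797) and -0.45 ± 0.08 (adjusted p = 0.000272). Between 3 and 6 h it rose by 0.47 ± 0.12 (adjusted p = 0.0468), with no overlap between those groups. This call was lost with RLE scaling, without the filter on low counts and with limma-voom, among other fits.

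Among members that act with co-repressors, Zfp217 rose and Zfp638 and Zfp703 fell. Zfp217 recruits CtBP and the Kdm1a and Rcor1 complex and is amplified in breast tumours. It had 63.1, 69.1 and 69.9 CPM in the controls, 109.7, 113 and 142 at 1.5 h, 143, 149.9 and 143 at 3 h and 109.7, 103 and 97.3 at 6 h. Changes were 0.85 ± 0.11 (adjusted p = 0.00258), 1.11 ± 0.12 (adjusted p = 0.000161) and 0.62 ± 0.11 (adjusted p = 0.00297) at the 3 times, each with every treated library above every control. Its mean was highest at 3 h, and it fell from 3 to 6 h, with a change of -0.49 ± 0.11 (adjusted p = 0.0408). This last call was lost in 11 of 19 other fits, with adjusted p up to 0.164, among them those scaled to the library total, to the depth and on log2 FPKM, and those without any 1 of the 3 h replicates or without 6 h replicate 2 or 3. Its promoter, printed above, was the only one of the 4 with neither a GC box, a cAMP response element nor an NRF1 core.

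Zfp638 binds nucleic acids and takes part in silencing of retroviral DNA through the HUSH complex. It was even in the controls, with 99.7, 98.3 and 99.2 CPM, and stood at 95.8, 87.1 and 84.8 at 1.5 h, 57.1, 64.4 and 54 at 3 h and 54.4, 45.7 and 46.5 at 6 h. Its change was -0.76 ± 0.11 (adjusted p = 0.00106) at 3 h and -1.02 ± 0.11 (adjusted p = 0.000187) at 6 h. At 1.5 h the difference of -0.15 ± 0.11 did not pass the test (adjusted p = 0.427), though all 3 libraries were below the controls. Zfp638 had the smallest adjusted p among members that fell at both times, and passed also with any 1 library left out.

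The co-repressor Zfp703 fell early and stayed down, at 121, 126 and 137 CPM in the controls, 79.7, 80.8 and 77.3 at 1.5 h, 90.3, 87.9 and 70 at 3 h and 69.5, 104 and 102 at 6 h. Changes were -0.69 ± 0.16 (adjusted p = 0.0415), -0.63 ± 0.16 (adjusted p = 0.0201) and -0.48 ± 0.16 (adjusted p = 0.0414). No treated library reached the lowest control. Its relative Zfp503 was more uneven, with 8.82, 9.78 and 9.07 CPM in the controls, 18, 16.6 and 8.89 at 3 h and 7.45, 18.6 and 12 at 6 h, where the libraries standing apart were nearest to or among the controls, and no difference passed. Without those libraries it passed, at 0.84 ± 0.18 (adjusted p = 0.000801) at 3 h and 0.65 ± 0.19 (adjusted p = 0.00564) at 6 h. These p-values depend on leaving them out.

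Zfp746, known as PARIS, is a parkin substrate that represses the gene of the mitochondrial regulator PGC-1α. Its level was 42.6, 39.3 and 53.9 CPM in the controls and 37.8, 39.8 and 45.5 at 1.5 h, and then 116, 114 and 70.5 at 3 h and 76.6, 129 and 120.3 at 6 h. It rose by 1.15 ± 0.24 (adjusted p = 0.00808) and 1.26 ± 0.24 (adjusted p = 0.00308). In both treated groups the library standing apart was well below the others and still above every control. Without these libraries the rise was 1.29 ± 0.11 (adjusted p = 1.02e-07) and 1.38 ± 0.11 (adjusted p = 4.66e-08). Zfp777, its neighbour on chromosome 4 in RefSeq, had 44.1, 49.9 and 44.4 CPM in the controls, 67.6, 75 and 53.3 at 3 h and 64, 87.7 and 88.5 at 6 h, a difference of 0.50 ± 0.17 (adjusted p = 0.0528) at 3 h, which did not pass, and a rise of 0.80 ± 0.17 (adjusted p = 0.00533) at 6 h. The 3 h difference passed without the libraries standing apart, at 0.56 ± 0.09 (adjusted p = 5.96e-05). Of 14 pairs of members that lie next to each other in RefSeq, none had both genes called at 3 h.

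**Figure D3:**
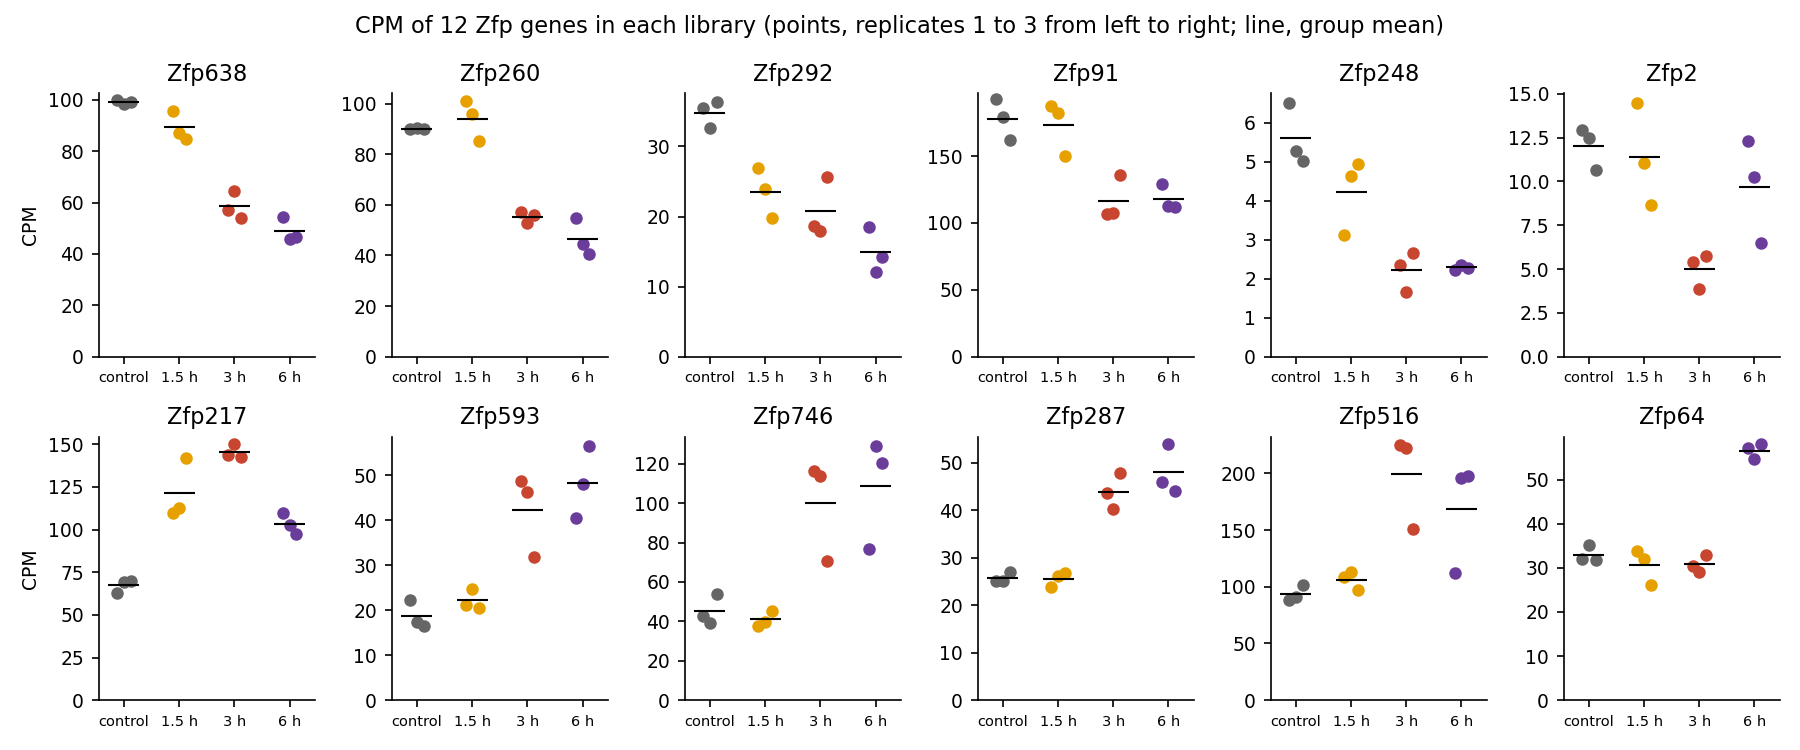
CPM (y axis, from 0) of 12 Zfp genes in each library, by group (x axis), with replicates 1 to 3 from left to right and the group mean as a line. Upper row, 6 genes lower at 3 h, of which Zfp2 is back near control in 2 libraries at 6 h. Lower row, 5 genes higher at 3 h and Zfp64, which is higher only at 6 h in the test, at 57.1, 54.6 and 58.1 CPM.

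Among DNA-binding transcription factors, Zfp516 rose and Zfp260, Zfp292 and Zfp148 fell. Zfp516, an activator of the brown fat programme, had 88.3, 91.1 and 101 CPM in the controls, 225, 222 and 151 at 3 h and 112, 196 and 198 at 6 h. The rise was 1.09 ± 0.22 (adjusted p = 0.00703) and 0.85 ± 0.22 (adjusted p = 0.015). Again 3 h replicate 3 and 6 h replicate 1 were the lowest of their groups, above the controls. Without these libraries the rise was 1.20 ± 0.08 (adjusted p = 2.44e-09) and 0.99 ± 0.08 (adjusted p = 2.30e-08). At 1.5 h the levels of 109, 113 and 97.1 CPM overlapped with the controls.

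Zfp260, an activator described in heart muscle cells, was nearly the same in each control, at 90.1, 90.3 and 90 CPM. It was 101, 95.8 and 85.1 at 1.5 h, 57.1, 52.7 and 56 at 3 h and 54.8, 44.4 and 40.5 at 6 h. Its change was -0.71 ± 0.12 (adjusted p = 0.00325) at 3 h and -0.95 ± 0.12 (adjusted p = 0.000447) at 6 h, and neither group overlapped with the controls. Unlike Zfp746 and Zfp516, its 3 h replicate 3 was level with replicates 1 and 2.

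Zfp292, a very large protein whose human gene is mutated in a developmental disorder of the brain, had 35.4, 32.6 and 36.3 CPM in the controls, 26.9, 24 and 19.8 at 1.5 h, 18.7, 17.9 and 25.7 at 3 h and 18.5, 12.1 and 14.3 at 6 h. The difference was -0.56 ± 0.20 (adjusted p = 0.148) at 1.5 h, not past the threshold, then -0.74 ± 0.20 (adjusted p = 0.0248) and -1.22 ± 0.20 (adjusted p = 0.00157). All 9 treated libraries were below all 3 controls. Zfp148, a factor that binds GC-rich promoters, had 70.6, 59.8 and 69.3 CPM in the controls and 42.6, 45.3 and 54 at 3 h, a change of -0.49 ± 0.14 (adjusted p = 0.0295). At 6 h it overlapped with the controls (61.5, 47.1 and 49.6 CPM).

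Zfp64 moved late. It was 32, 35.2 and 31.7 CPM in the controls, 33.9, 32 and 26.1 at 1.5 h, 30.5, 29 and 33 at 3 h and 57.1, 54.6 and 58.1 at 6 h. Against control it differed by -0.10 ± 0.12 (adjusted p = 0.573) at 3 h, which did not pass, and rose by 0.78 ± 0.12 (adjusted p = 0.00114) at 6 h. The rise from 3 to 6 h was 0.88 ± 0.12 (adjusted p = 0.00918), and the 3 libraries at 6 h were close together and above all others. Zfp91, a ubiquitin ligase of the non-canonical NF-κB pathway, fell, with a change of -0.61 ± 0.14 (adjusted p = 0.0122) at 3 h and -0.59 ± 0.14 (adjusted p = 0.00869) at 6 h, from 193, 179 and 162 CPM to 106, 108 and 136 CPM at 3 h and 129, 112 and 112 CPM at 6 h. Every library at these times was below every control.

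Other factors, some of them known from neural or stem cells, did not pass the test at any time with all libraries in the fit. They passed at some times without the libraries standing apart. Zfp521, which promotes early neural differentiation, had 33.8 ± 2.63 CPM in the controls, 39.8 ± 11.9 at 3 h and 39.8 ± 8.65 at 6 h (SD, n = 3), with differences of 0.41 ± 0.10 (adjusted p = 0.00271) and 0.32 ± 0.10 (adjusted p = 0.0122) in the fit without those libraries. Zfp281, a factor of pluripotent cells, stood at 85.4, 81.8 and 77.4 CPM in the controls and at 194, 163 and 97.3 at 1.5 h, a difference of 0.89 ± 0.22 (adjusted p = 0.0555), with replicates 1 and 2 far above replicate 3. Without that replicate and the others standing apart the rise was 1.13 ± 0.08 (adjusted p = 1.43e-08), and with the replicate block it passed too, with an adjusted p of 0.0419. For Zfp384, a nuclear matrix factor, the largest difference was -0.40 ± 0.14 (adjusted p = 0.149) at 1.5 h, or -0.54 ± 0.10 (adjusted p = 0.000247) without the libraries standing apart. Zfp704 was split in the same way as the libraries, at 19.4, 18.4 and 17.1 CPM in the controls, 30.3, 30.9 and 12.6 at 1.5 h and 10.1, 8.36 and 19.1 at 3 h. Its difference was 0.74 ± 0.13 (adjusted p = 0.000163) at 1.5 h and -1.04 ± 0.15 (adjusted p = 1.85e-05) at 3 h without the libraries standing apart. The libraries left out at these times were those at 12.6 and 19.1 CPM, so these p-values depend on that choice.

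At 3 and 6 h Zfp367 was split by library in the way of the mitosis genes. It was 43.3, 40 and 27.9 CPM in the controls, 49.9, 53.4 and 26.2 at 1.5 h, 15.7, 16.2 and 28.3 at 3 h and 31.5, 15.2 and 12 at 6 h. The 2 libraries at 3 h and the 2 at 6 h in which mitosis genes were low were also those in which Zfp367 was below every control, and the library standing apart in each group was not. The differences of -0.88 ± 0.40 (adjusted p = 0.129) at 3 h and -0.92 ± 0.40 (adjusted p = 0.101) at 6 h did not pass. Both passed, at -1.28 ± 0.17 (adjusted p = 1.36e-05) and -1.53 ± 0.18 (adjusted p = 2.80e-06), when the libraries standing apart were left out.

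Among the 5 most abundant members per length, Zfp106 and Zfp24 were not called at any time. Zfp106 had 279 ± 9.07 CPM in the controls, 277 ± 4.4 at 1.5 h, 263 ± 24.3 at 3 h and 219 ± 38.2 at 6 h, with no difference past the threshold, the largest being -0.35 ± 0.14 (adjusted p = 0.0703). Zfp24 was very even, at 122, 121 and 119.8 CPM in the controls, and lay at 114, 109 and 109 at 1.5 h, 106, 106 and 112 at 3 h and 113, 106 and 105 at 6 h. All its treated libraries were below all controls, by -0.13 ± 0.08, -0.16 ± 0.08 and -0.17 ± 0.08, and none of these passed. When the libraries standing apart were left out, Zfp106 passed at 6 h, at -0.30 ± 0.07 (adjusted p = 0.00117), and Zfp24 at 3 and 6 h, at -0.25 ± 0.07 (adjusted p = 0.00521) and -0.29 ± 0.07 (adjusted p = 0.0021).

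Most members that fell at 3 h have no role given here, and the 11 with a log2 fold change of -1 or lower were all of this kind and weakly expressed. Zfp606 went from 9.33, 9.43 and 9.42 CPM to 3.05, 1.98 and 3.48 at 3 h (-1.72 ± 0.53, adjusted p = 0.0427), and at 6 h was 13.5, 3.18 and 4 CPM, with replicate 1 above the controls. Zfp2 went from 12.9, 12.5 and 10.6 to 5.41, 3.85 and 5.77 CPM (-1.26 ± 0.29, adjusted p = 0.0139) and at 6 h was 12.3, 10.3 and 6.51 CPM. Zfp112 had 4.11, 6.36 and 4.84 CPM in the controls, 2.36, 1.87 and 2.2 at 3 h (-1.25 ± 0.34, adjusted p = 0.0259) and 5.05, 3.69 and 3.54 at 6 h. For these 3 genes the groups at 3 h and control did not overlap, while those at 6 h and control did, and the differences at 6 h did not pass (0.527, 0.417 and 0.472 as adjusted p). Without 6 h replicate 1 and the others standing apart, Zfp606 and Zfp2 passed at 6 h too, at -1.48 ± 0.27 (adjusted p = 0.000152) and -0.60 ± 0.22 (adjusted p = 0.0241). The 6 h library left out was the one at 13.5 and 12.3 CPM, above or among the controls. These p-values therefore depend on that choice.

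Zfp251 was low at 3 h and near control at 6 h. Its levels were 47, 53.5 and 49.9 CPM in the controls, 39.5, 34.5 and 35.5 at 1.5 h, 26.5, 32.1 and 34.5 at 3 h and 38.7, 55.7 and 51.9 at 6 h. It fell, with a change of -0.69 ± 0.15 (adjusted p = 0.0122) at 3 h, and differed by -0.04 ± 0.15 (adjusted p = 0.859) from control at 6 h. From 3 to 6 h it rose by 0.65 ± 0.15 (adjusted p = 0.044), with no overlap. This call too was lost in 9 of 19 other fits, with adjusted p up to 0.18. Among them were those with RLE scaling, without the filter on low counts and with limma-voom.

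Other weakly expressed members were low at both 3 and 6 h. Zfp248 had 6.51, 5.28 and 5.02 CPM in the controls, 2.36, 1.65 and 2.66 at 3 h and 2.23, 2.36 and 2.29 at 6 h, a change of -1.33 ± 0.30 (adjusted p = 0.0129) and -1.29 ± 0.30 (adjusted p = 0.00925). Zfp239 went from 14.8, 15.9 and 18.4 to 5.6, 6.71 and 11.5 CPM at 3 h and 6.68, 5.85 and 7.66 CPM at 6 h, by -1.04 ± 0.25 (adjusted p = 0.0178) and -1.28 ± 0.26 (adjusted p = 0.00426). In neither gene did the treated groups at 3 or 6 h overlap with the controls, and at 1.5 h Zfp239 was not below them.

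Zfp40 fell, with a change of -1.56 ± 0.49 (adjusted p = 0.0445) and -1.75 ± 0.49 (adjusted p = 0.0225), Zfp483 with -1.59 ± 0.48 (adjusted p = 0.0395) and -1.62 ± 0.48 (adjusted p = 0.0285), and Zfp605 with -1.50 ± 0.48 (adjusted p = 0.0474) and -1.66 ± 0.49 (adjusted p = 0.0262) at 3 and 6 h. The highest control value of these 3 genes was 6.33 CPM, for Zfp40. The change of Zfp40 at 3 h was -2.36 ± 0.35 (adjusted p = 2.84e-05) without the libraries standing apart. Zfp182, at 7.45, 7.86 and 5.63 CPM in the controls and 2.95, 2.42 and 4.49 at 3 h, fell, with a change of -1.08 ± 0.34 (adjusted p = 0.0454). Each of these calls at 3 h was lost when some single libraries were left out. Zfp189 passed only at 6 h, by -0.91 ± 0.26 (adjusted p = 0.0243), with 16.9, 14.7 and 12.3 CPM in the controls and 10.4, 7.08 and 5.83 at 6 h.

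Of the 4 early falls 3 were in this group of weakly expressed genes. Zfp623 had 15.9, 14.1 and 15.5 CPM in the controls and 7.65, 9.88 and 6.95 at 1.5 h (-0.89 ± 0.19, adjusted p = 0.0337), then 14.5, 13.6 and 12.7 at 3 h and 11.6, 15.5 and 16.3 at 6 h. Zfp133 had 14.1, 13.2 and 13.9 CPM in the controls, 8.75, 7.06 and 8.86 at 1.5 h (-0.74 ± 0.17, adjusted p = 0.047), 11.3, 13.2 and 14.2 at 3 h and 20.5, 16.1 and 16.5 at 6 h. Both were low at 1.5 h in each library and overlapped with or lay above the controls later. Zfp87 was low at 1.5 and 3 h, by -0.88 ± 0.20 (adjusted p = 0.0398) and -0.65 ± 0.20 (adjusted p = 0.0399), with 14.1, 14.1 and 15.1 CPM in the controls, 6.84, 9.41 and 7.25 at 1.5 h and 10.7, 9.46 and 7.42 at 3 h. None of the 4 falls at 1.5 h stayed past the threshold when any single control was left out.

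Of the symbols on several rows, Zfp54 and Zfp58 gave calls. Rows that share a symbol may be near copies between which the counting could have split reads, so these values are uncertain. Among 8 tested Zfp54 rows, 1 fell at 3 h, with a change of -1.73 ± 0.52 (adjusted p = 0.0391), from 4.19, 4.93 and 7.22 to 2.16, 1.54 and 1.19 CPM. All 8 had a log2 fold change below 0 at 3 h, between -1.73 and -0.14. Of the 2 Zfp58 rows, 1 fell, with a change of -1.87 ± 0.51 (adjusted p = 0.027) at 3 h and -1.76 ± 0.51 (adjusted p = 0.0243) at 6 h, from 3.08, 1.43 and 2.82 CPM to 0.787, 0.44 and 0.733 CPM at 3 h. The other differed by -1.57 ± 0.60 (adjusted p = 0.0805) at 3 h.

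Several risen members likewise have no role given here. Zfp287 was even, at 25.1, 25.1 and 27 CPM in the controls and 23.7, 26.1 and 26.7 at 1.5 h, and rose to 43.7, 40.1 and 47.9 at 3 h and 45.9, 53.9 and 44.1 at 6 h. Its changes were 0.77 ± 0.12 (adjusted p = 0.00171) and 0.90 ± 0.12 (adjusted p = 0.000529), with the groups at 3 and 6 h above the controls in every library. Zfp697 went from 6.59, 8.36 and 4.84 CPM to 31.6, 23.9 and 12.3 at 3 h and 19.9, 23.6 and 19.9 at 6 h, by 1.77 ± 0.41 (adjusted p = 0.0147) and 1.67 ± 0.41 (adjusted p = 0.0121). Its 3 h replicate 3 was the lowest of the treated libraries at these times, above the highest control.

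Zfp839 rose by 1.11 ± 0.21 (adjusted p = 0.00557) at 3 h and 0.71 ± 0.21 (adjusted p = 0.0296) at 6 h, from 5.14, 5.93 and 5.1 to 12.2, 11.8 and 11.1 CPM at 3 h and 8.39, 10.4 and 7.66 CPM at 6 h. Zfp319 rose by 0.74 ± 0.22 (adjusted p = 0.036) and 0.66 ± 0.22 (adjusted p = 0.0425), with the libraries standing apart, at 65.4 and 60.2 CPM, nearest to the controls of 50.2, 56.3 and 50.8 CPM. Zfp799 had 11.8, 11.4 and 13.5 CPM in the controls, 23.2, 23 and 15.8 at 1.5 h and 22.9, 28 and 20.4 at 3 h, where it rose by 0.96 ± 0.24 (adjusted p = 0.0206). Zfp819, at about 1 CPM in the controls (0.685, 1.07 and 1.5), had 3.83, 6.05 and 2.29 CPM at 3 h, a rise of 1.89 ± 0.50 (adjusted p = 0.0246). At 6 h the difference did not pass for Zfp799 (0.37 ± 0.24) or Zfp819 (1.19 ± 0.50), but without the libraries standing apart both passed, at 0.50 ± 0.15 (adjusted p = 0.00688) and 1.34 ± 0.44 (adjusted p = 0.0126).

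Some rises passed only at 6 h. Zfp438 went from 3.68, 3.71 and 5.98 CPM to 14, 8.83 and 10.5 (1.32 ± 0.27, adjusted p = 0.00528), and at 3 h was 6.78, 7.81 and 8.98 CPM (0.82 ± 0.27, adjusted p = 0.0551). Zfp316 went from 12.8, 16.3 and 14 to 25.8, 24.1 and 29.4 CPM (0.88 ± 0.20, adjusted p = 0.00929) and Zfp11 from 9.42, 9.21 and 8.27 to 11.8, 19.1 and 19.3 CPM (0.90 ± 0.28, adjusted p = 0.0322). Zfp438 and Zfp11 passed at 3 h as well without the libraries standing apart, at 0.65 ± 0.26 (adjusted p = 0.0353) and 0.85 ± 0.16 (adjusted p = 0.00024). In all 3 genes every library at 6 h was above every control. That a gene passed at 6 h and not at 3 h does not show a difference between these times: of the members, 3 were higher and 1 lower at 6 h than at 3 h, against 2.33% and 1.72% of all genes. Without the libraries standing apart these were 29 and 11 of 164 members, against 15.4% and 18.7% of all genes. With all libraries they were Zfp64, Zfp251, Zfp598 and, lower, Zfp217, described above. The median difference from 3 to 6 h was 0.18 over the 163 members, and -0.03 over the other genes.

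**Figure D4:**
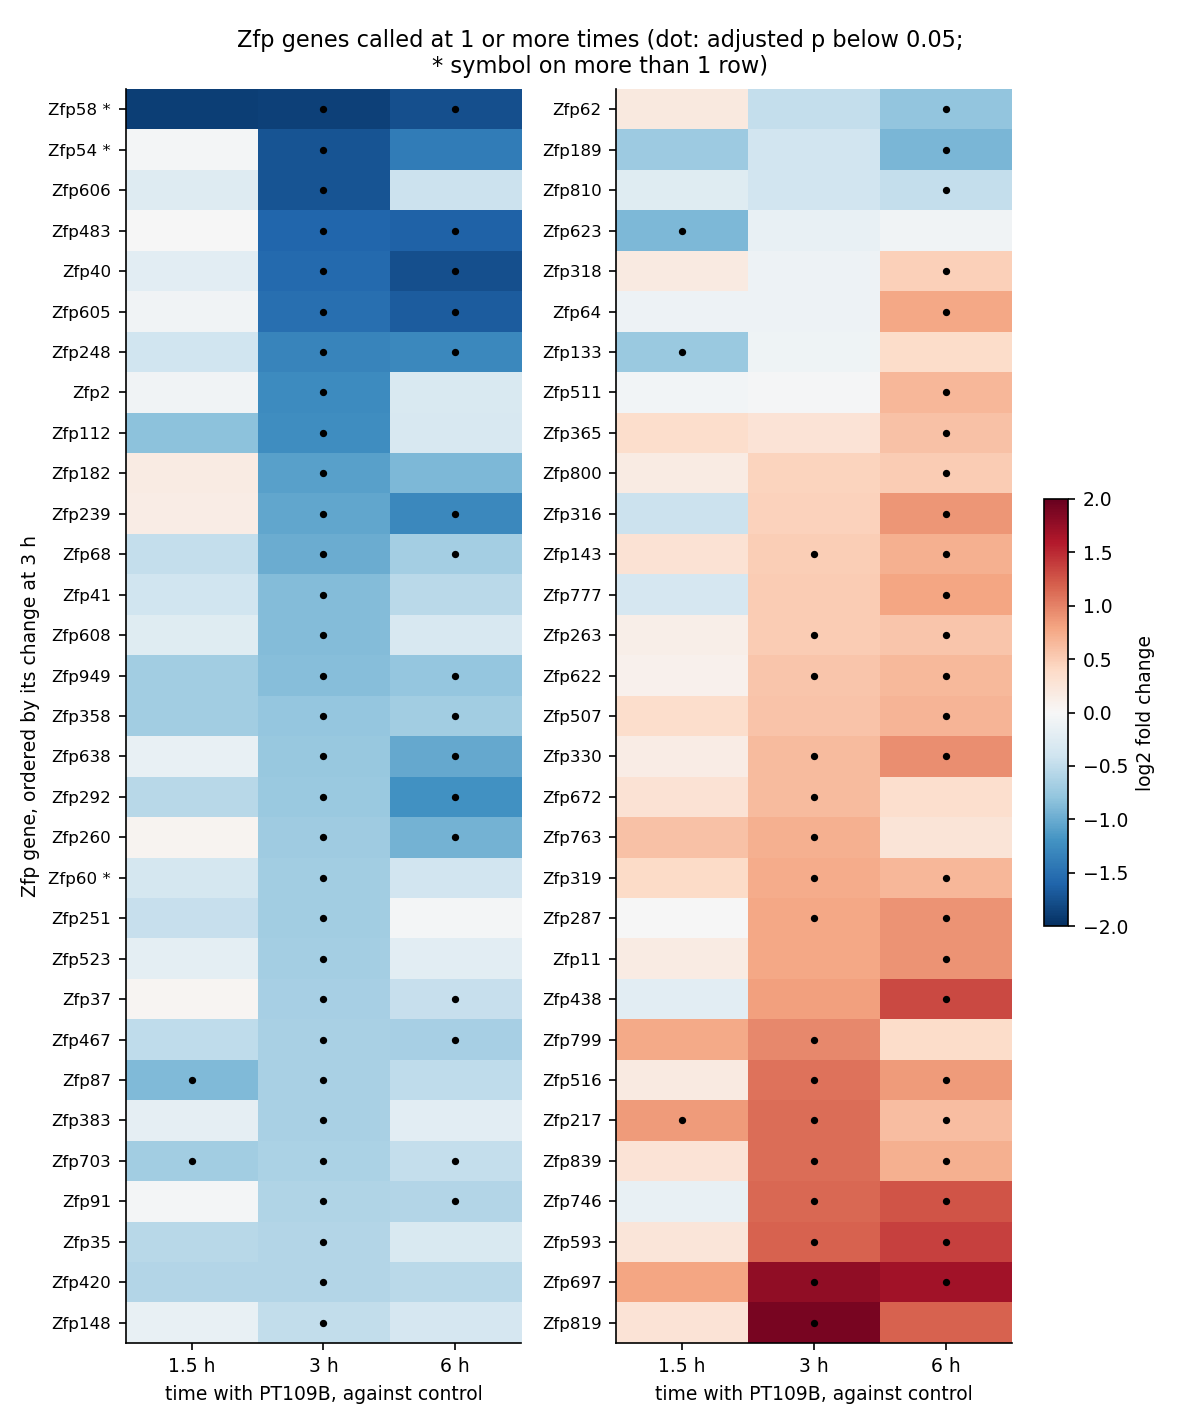
Log2 fold change against control (colour, from -2 in blue to 2 in red) at 1.5, 3 and 6 h (x axis) of the 62 Zfp rows with an adjusted p below 0.05 at 1 or more of these times (y axis, ordered by the change at 3 h). Dots mark the calls, of which there are 5 at 1.5 h, 47 at 3 h and 41 at 6 h.

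Over the 3 times 62 of the 163 members were called at least once against control, or 38.0%, near the 37.8% of all 9491 genes, and 101 were not called. Named members gave 67 calls over the 4 comparisons, and 26 of these stayed past the threshold with any 1 library left out. All 67 stayed past it without the 3 libraries standing apart, in a fit in which 50 of the 125 other differences of named members passed as well. Since those libraries were picked from the same data, this is no separate support for the calls. The 26 were Zfp217 at all 3 times, Zfp638, Zfp260, Zfp287, Zfp330, Zfp593 and Zfp746 at 3 and 6 h, Zfp516 and Zfp839 at 3 h, Zfp239, Zfp248, Zfp292, Zfp91, Zfp438, Zfp622, Zfp777 and Zfp64 at 6 h, and Zfp64 between 3 and 6 h. In the zf-C2H2 family of the deposited annotation, 25 of 125 members tested were lower at 3 h and 11 higher. Among the 33 tested with no factor family, 5 were lower and 5 higher, with medians of -0.31 and -0.18 for these 2 sets. Of these, 73 and 18 were lower and 25 and 6 higher without the libraries standing apart. Over all genes 7.94% were lower and 13.5% higher at 3 h with all libraries, and 39.6% and 31.4% without those standing apart.

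Other zinc finger families of the table were looked at by name in the same way, to see which way they leaned at 3 h. With all libraries 7.94% of all genes were lower and 13.5% higher at that time. Of 20 Zfp genes with a letter after the number, 4 were lower and 3 higher, with a median of -0.29. Of 37 Znf genes, the spelling used for human names, 5 were lower and 1 higher, with a median of -0.88. Among 127 other genes of the zf-C2H2 family 17 were lower and 21 higher. Of 32 Zbtb genes, whose fingers are joined to a BTB domain, 3 were lower and 6 higher. In 12 Klf genes, the Krüppel-like factors, 1 was lower and 5 were higher, with a median of 0.53. Of 11 Zscan and Zkscan genes 2 were lower and 1 higher, and of 14 Zc3h genes, with fingers of another type that bind RNA, 3 were lower and 1 was higher. Without the libraries standing apart the counts lower and higher were 12 and 5 for the Zfp genes with a letter, 29 and 1 for Znf, 58 and 36 of 128 for other zf-C2H2 genes, 10 and 9 for Zbtb, 1 and 10 of 13 for Klf, 4 and 3 for Zscan and Zkscan and 7 and 3 for Zc3h, in a fit with 39.6% of all genes lower and 31.4% higher. Other zf-C2H2 genes and Zbtb genes thus had more members higher in one fit and more lower in the other. These counts are small, and no family was tested against another.

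**Figure D5:**
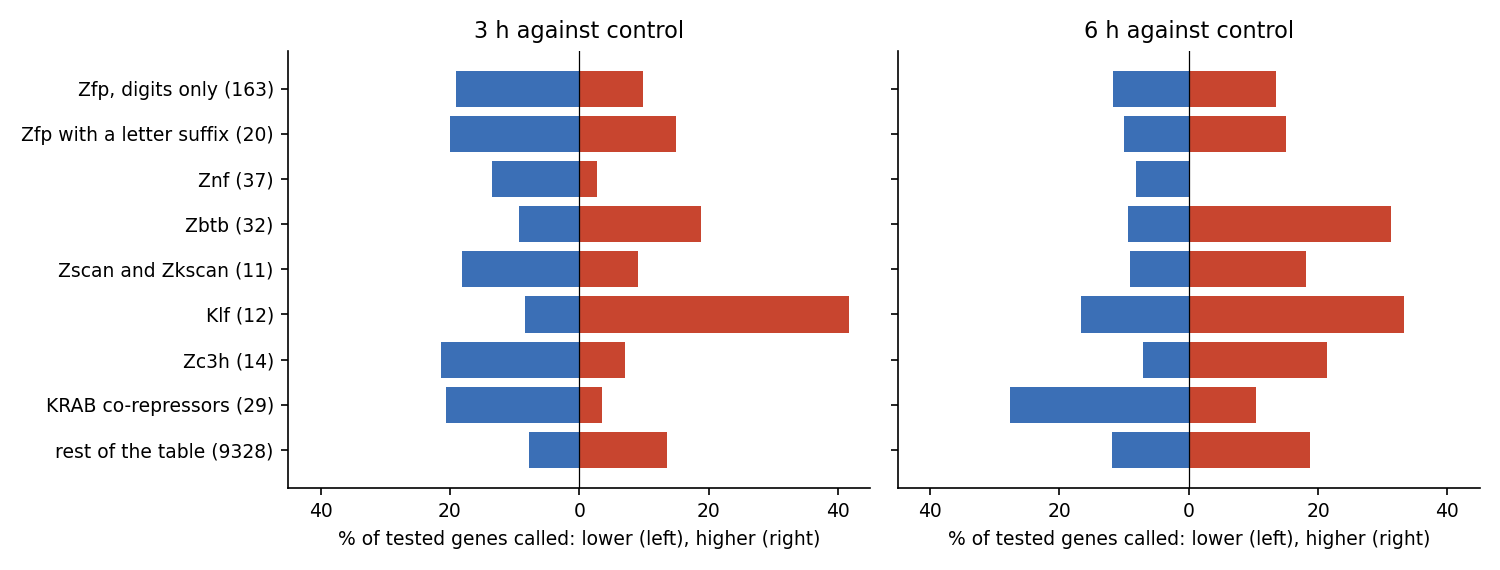
Share of tested genes (x axis, in percent) that were lower (left, blue) and higher (right, red) at 3 h and 6 h, for the Zfp genes, other families, the KRAB co-repressors and the rest of the table, with the number tested in brackets (y axis). At 3 h the Zfp bar reaches 19.0% lower, and that of the other genes 7.75%.

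The partners through which KRAB proteins silence DNA were looked at from a list of 37 genes, of which 29 rows were in the table. At 3 h 6 of the 29 were lower and 1 higher, and at 6 h 8 were lower and 3 higher. Of all genes 7.94% were lower and 13.5% higher at 3 h, and 11.8% and 18.7% at 6 h. Without the libraries standing apart 18 were lower and 6 higher at 3 h, and 14 and 6 at 6 h. In that fit 39.6% of all genes were lower and 31.4% higher at 3 h, and 41.8% and 33.3% at 6 h. The medians of the list, -0.20 at 3 h and -0.03 at 6 h, stood beside -0.03 and -0.02 for the other genes. Trim28 itself was not analysed here. Setdb1 had 73 ± 2.36 CPM in the controls, 87.7 ± 6.97 at 3 h and 113 ± 14.9 at 6 h, and rose by 0.63 ± 0.13 (adjusted p = 0.00446) at 6 h. The other genes of the list called higher against control were Trim24 at 3 h, and Kdm1a and Rcor1 at 6 h. Trim24 rose by 0.57 ± 0.16 (adjusted p = 0.0328), Kdm1a by 0.58 ± 0.15 (adjusted p = 0.015) and Rcor1 by 0.45 ± 0.14 (adjusted p = 0.0332).

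Among the heterochromatin proteins, Cbx5 fell from 79.6, 78.5 and 80.4 CPM to 53.4, 47.1 and 46.6 at 3 h and 33, 38.9 and 30.9 at 6 h, by -0.70 ± 0.14 (adjusted p = 0.00639) and -1.21 ± 0.14 (adjusted p = 0.000231). Cbx1 differed by -0.49 ± 0.18 (adjusted p = 0.07) at 3 h and fell, with a change of -0.57 ± 0.18 (adjusted p = 0.0324) at 6 h, and Cbx3 did not pass (-0.25 ± 0.16, adjusted p = 0.244 at 6 h). Without the libraries standing apart Cbx1 passed at 3 h, at -0.59 (adjusted p = 0.00344), and Cbx3 at 6 h, at -0.42 (adjusted p = 0.000371). Atrx, a chromatin remodeller of silent repeats, fell, with a change of -0.89 ± 0.23 (adjusted p = 0.0236) and -1.42 ± 0.24 (adjusted p = 0.00162). The remodeller Smarcad1 fell, with a change of -0.74 ± 0.15 (adjusted p = 0.00698) and -0.58 ± 0.15 (adjusted p = 0.0148).

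Ehmt1, a methyltransferase of histone H3, fell at 3 h, with a change of -0.76 ± 0.13 (adjusted p = 0.00303), from 89.1, 89.9 and 91.2 to 58.5, 49.3 and 51.4 CPM. It was back at 75.2, 93 and 97.4 CPM at 6 h, a rise of 0.74 ± 0.13 (adjusted p = 0.016) from 3 h. Ehmt2 was lower at 3 and 6 h, at -0.34 ± 0.09 (adjusted p = 0.0217) and -0.74 ± 0.09 (adjusted p = 0.00026). From 3 to 6 h it changed by -0.40 ± 0.09 (adjusted p = 0.0316). Chd3 and Mphosph8 were called lower at 6 h, at -0.55 ± 0.14 (adjusted p = 0.0135) and -0.64 ± 0.22 (adjusted p = 0.0487). Dnmt1, the DNA methyltransferase that copies methylation at replication, fell, with a change of -0.79 ± 0.23 (adjusted p = 0.0321) and -0.76 ± 0.23 (adjusted p = 0.028). By library it had 85.6, 84.9 and 135 CPM at 3 h and 127, 90.3 and 96 at 6 h, beside 182, 198 and 151 in the controls. Its changes were -1.12 (adjusted p = 1.09e-07) and -1.01 (adjusted p = 2.82e-07) without the libraries standing apart. The libraries with few mitosis transcripts were the lowest in both groups, and the part of this in the result was not tested.

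The untested members were close to 0. Zfp488, a factor of the oligodendrocyte lineage, had 2.31 and 1.49 CPM in replicates 1 and 2 at 1.5 h, 0.214 CPM in 1 control and was at 0 counts in the other 9 libraries. In those replicates the list of oligodendrocyte lineage markers was also higher, with a mean log2 CPM of up to 5.77 against 4.39 to 4.75 in the controls. Their sum differed less, at 1047 and 1106 CPM against 930 to 962 CPM. Not every gene of the list was higher, as Olig1 was at 344 and 361 CPM, against 426 to 449 CPM in the controls. Zfp551 was at or below 1.37 CPM in every library.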

How the data were processed

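RNA-seq of 12 libraries (control and PT109B at 1.5, 3 and 6 h, 3 each) was read from 1 deposited table of 9721 genes. Per the file headers, the authors gave FPKM values and, beside them, an estimated count for each gene and library. The submitters' processing notes list StringTie 2.2.1, while an aligner or a genome build is not given in the sources used here. Because 9.49% of the counts (in 25 members among others) had decimals, all were rounded before testing, a departure from the whole counts that the choice of test had assumed. Totals of 9368972 to 12498050 counts limit the precision of weakly expressed members, and adjusted p-values refer to the genes of this table only.

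In R 4.3.3, edgeR 4.0.16 (filterByExpr, TMM, robust quasi-likelihood test, 1 fit to all 12 libraries) gave log2 fold changes with a prior count of 0.125, SE and Benjamini-Hochberg adjusted p over 9491 genes, with a threshold of 0.05. The steps were tested on simulated data, in which 37% to 39% of 2-fold changes and 71% to 76% of 4-fold changes were recovered. A difference that did not pass can therefore still be a change. The members, lists and tests were chosen with earlier results of these data known. Named members are the 10 with the largest called change in each direction per comparison (at least 2 CPM, no overlap between groups), the 5 of highest FPKM and 22 fixed genes, of which 16 were in the table. Alternatives were RLE, library size or depth scaling, no filter, 2-group fits, a replicate block, DESeq2 1.42.0, limma 3.58.1 (voom, and trend on log2 FPKM with pseudocounts of 0.1 and 1), the microglia level as a covariate, leaving out libraries (2 treated libraries a group against 3 controls without those standing apart) and, added after seeing the data, a mean CPM of at least 5. No protein sequences were used here, so the deposited factor family, chosen after seeing the table, stands in for protein features. Deviations from the group means of same-numbered libraries, taken from the labels' replicate numbers, had correlations of 0.20, 0.37 and 0.45 between control and 1.5 h, so the blocked values are given for that comparison, although control 1 correlated as much with 1.5 h replicate 2 (0.21). In the other 3 comparisons they were not all above 0.1 (-0.66 to 0.60), and the numbers were not taken to pair the libraries.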

Additional observations from a re-analysis of the deposited data

Results flagged for a closer look

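The effects at 6 h and at 3 h against the same controls differed, by the test of 6 h against 3 h, for 4 members. The difference in log2 fold change was 0.88 for Zfp64, 0.65 for Zfp251, 0.47 for Zfp598 and -0.49 for Zfp217. In each of the 4 genes no library at 6 h overlapped with those at 3 h. Zfp64 was near control at 3 h and above it at 6 h, and Zfp251 was below control at 3 h and near it at 6 h. Zfp217 was above control at both times. Zfp64 alone of these stayed past the threshold with any 1 library left out.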

How the results depend on the processing

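Counts of members are given as higher and lower, at 1.5 h (1 and 4 as reported), 3 h (16 and 31), 6 h (22 and 19) and 6 h against 3 h (3 and 1). Without the 3 libraries standing apart they were 30 and 50, 32 and 92, 45 and 69, and 29 and 11. The shares of all genes for both of these settings are given above. Library size scaling gave 8 and 60 at 3 h, 12 and 33 at 6 h, and 6 and 0 between these times, and depth from count and FPKM 9 and 56, 12 and 32, and 6 and 0. On log2 FPKM the counts at 1.5 h were 8 lower (pseudocount 0.1) and 9 lower (1), at 3 h 8 and 63, and 8 and 62, at 6 h 12 and 30, and 13 and 34, and between times 5 and 0 with both. Of all genes, 2.23% and 2.37% were lower at 1.5 h, 21.4% and 22.3% at 3 h, and 20.7% and 21.4% at 6 h. Those higher were 7.28% and 7.26% at 3 h, and 13.4% and 13.8% at 6 h. Between times 3.79% and 4.24% of all genes were higher. With the microglia level as a covariate 48 were lower at 3 h and 31 at 6 h, and 7 and 2 changed between times. In that fit 13.4% of all genes were lower at 3 h and 17.1% at 6 h, and 6.13% and 4.40% changed between times. DESeq2 gave 3 and 9 at 1.5 h and 8 and 2 between times, RLE scaling 2 and 2 at 1.5 h and 1 higher between times, no filter 2 higher at 1.5 h and 1 between times, limma-voom 1 higher between times, and the 2-group fits 0 and 0 there. Of all genes, DESeq2 called 5.46% and 2.98%, and 5.10% and 3.91%. RLE scaling called 2.04% and 0.885% of all genes at 1.5 h and 2.01% higher between times. No filter gave 2.11% and 1.99% higher, limma-voom 2.39%, and the 2-group fits 0.0219% and 0.0546%. With the replicate number as a block they were 2 and 0 at 1.5 h and 1 and 0 between times, and 13 and 24 at 3 h. The shares of all genes were then 1.44% and 0.674%, 0.906% and 0.769%, and 10.6% and 6.33%. Leaving out 1 library at a time gave 1 to 9 higher and 0 to 15 lower at 1.5 h, 7 to 18 and 6 to 61 at 3 h, 11 to 30 and 7 to 28 at 6 h, and 1 to 6 and 0 to 1 between times. The highest counts against control came without 1.5 h replicate 3, 3 h replicate 3 or 6 h replicate 1. Of all genes, 13.4% were then higher and 16.7% lower at 1.5 h, 19.5% and 19.2% at 3 h, and 22.8% and 17.7% at 6 h. The lowest counts at 6 h were 11 higher without 6 h replicate 3 (10.4% of all genes) and 7 lower without control replicate 1 (6.52%). The 6 higher between times came without 3 h replicate 3 (4.05% of all genes). The cause of these shifts was not tested. No value of a named member changed direction in a call. Of the values of the 67 calls under settings that leave out no single library, 779 stayed past the threshold and 79 did not. The members' median lay below that of the other genes in all 20 fits at 1.5, 3 and 6 h, by 0.07 to 0.26, 0.20 to 0.33 and 0.04 to 0.15. The share of members lower was above that of the other genes in 12 of 20 fits at 1.5 h, 20 at 3 h and 9 at 6 h. These fits share most of their libraries and are not independent of each other.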
